A study of Mus musculus with 2 samples.

Results

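The connexin genes of skin were examined in NC/Nga mice, an inbred strain that readily develops dermatitis, as 7 genes (Gjb2, Gjb6, Gja1, Gjb5, Gja4, Gja5 and Gjc1) out of 22180 genes measured. They were taken by gene symbol from the array platform's annotation, and each was read by 1 probe of its own. The ZAG group had dermatitis induced with house dust mite (Dermatophagoides farinae) body extract ointment and received topical recombinant ZAG (zinc-alpha-2-glycoprotein, a secreted lipid-mobilising protein) at 1 µg/mL, and the control group had the same dermatitis with no ZAG named in its label. All animals were female, entered at 6 weeks of age and were sampled at 13 weeks, with 6 weeks of mite ointment and, in the ZAG group, 6 weeks of ZAG. There was no group without dermatitis, so every value below is from inflamed skin. Dorsal skin RNA was hybridised to Affymetrix arrays, and the values used here are 1 column per group, so 2 arrays in all. The design text names 3 mice per group, but the sources used here do not say whether a column is 1 mouse, a pool or a mean. With 1 array per group there is no replicate check, and no difference below carries a p-value.

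Connexins are membrane proteins that assemble into hemichannels. Hemichannels of neighbouring cells dock to form gap junctions, which pass ions and small metabolites from cell to cell, and undocked hemichannels can release ATP. Gjb2 encodes Cx26 and Gjb6 encodes Cx30, which are sparse in resting epidermis between hair follicles and are known to increase in wounded and psoriatic, hyperproliferative epidermis. Gja1 encodes Cx43, the most widespread connexin, found in resting epidermis and also in dermal fibroblasts, and Gjb5 encodes Cx31.1, a connexin of differentiating keratinocytes. Gja4 (Cx37) and Gja5 (Cx40) are connexins of the endothelium, and Gjc1 (Cx45) is found in vascular smooth muscle. The comparison asked whether the connexins tied to hyperproliferative epidermis differed between the arrays in another way than the constitutive ones.

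Levels are the deposited log2 signals of 1 probe and are not compared between genes, because probes differ in brightness. The background gauge of 3.16 is the level that 95% of 1390 olfactory or vomeronasal receptor genes, taken as largely silent in skin, did not exceed, and is a rough guide only. The SD of the log2 difference between probes of one gene was 0.244. It came from the 591 genes with more than 1 probe and a level no lower than the median of all genes. This SD measures the spread between probes and not the spread between mice.

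None of the 7 connexins differed by as much as 1.5-fold between the ZAG and control arrays. Gjb2 and Gjb6 were lower on the ZAG array and Gja1, Gjb5 and Gja4 were higher, with log2 differences (ZAG minus control) between -0.25 and 0.22. As a background, of the 11090 genes with a level no lower than the median, 1.15% reached 2-fold in the lower direction with ZAG and 0.271% in the higher direction. At 1.5-fold these shares were 5.08% and 2.48%. A count of 0 among 7 genes does not stand apart from shares of this size. Of the 7, 5 were at or above the median level and above the gauge on both arrays, and 2 (Gja5 and Gjc1) were below the gauge on both, so that no direction is read for them.

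**Figure D1:**
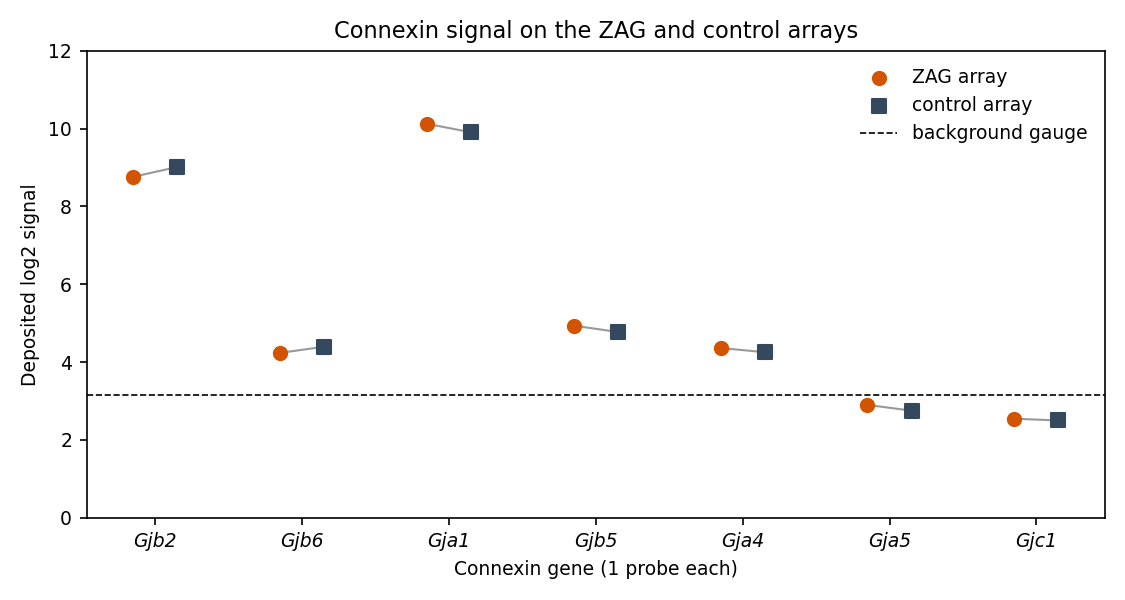
Deposited log2 signal of each connexin gene on the ZAG array (circles, left of each pair) and the control array (squares, right), with the background gauge of 3.16 as a dashed line. The 2 points of each gene lie close together, Gjb2 and Gjb6 are lower on the ZAG array, and Gja5 and Gjc1 lie under the gauge; heights are not comparable between genes.

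The first pair set against the others was Gjb2 and Gjb6. Their promoter windows are shown, 250 bases before to 50 bases after the gene start, because these are the genes of the hyperproliferative state; the sequences are from RefSeq on build GRCm38.p6. Gjb2 lies at chr14:57104653-57104952 on the minus strand and Gjb6 at chr14:57133562-57133861 on the minus strand. Capitals mark matches on either strand to the GC box GGGCGG, the TATA box TATAAA or the AP-1 motif TGANTCA, and no matches overlap.
Gjb2: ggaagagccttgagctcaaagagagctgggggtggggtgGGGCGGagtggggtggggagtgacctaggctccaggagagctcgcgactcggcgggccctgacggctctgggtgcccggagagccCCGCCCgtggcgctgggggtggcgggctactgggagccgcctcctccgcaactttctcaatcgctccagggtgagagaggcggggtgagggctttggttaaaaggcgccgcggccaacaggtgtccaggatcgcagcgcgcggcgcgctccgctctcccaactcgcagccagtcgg
Gjb6: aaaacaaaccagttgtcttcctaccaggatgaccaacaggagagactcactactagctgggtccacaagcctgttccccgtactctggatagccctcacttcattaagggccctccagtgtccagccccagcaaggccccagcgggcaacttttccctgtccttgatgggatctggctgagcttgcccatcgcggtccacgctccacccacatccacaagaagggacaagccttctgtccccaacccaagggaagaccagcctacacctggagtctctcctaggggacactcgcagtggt
The Gjb2 window holds 2 GC boxes, at -211 on the gene's strand and at -126 on the opposite strand, counted from the start site to the first base of the match. It is 70.0% G and C with 27 CpG dinucleotides, while the Gjb6 window is 57.3% G and C with 6 CpG dinucleotides and no match to any of these motifs. Over 32851 promoter windows of the same length the median was 52.7% G and C, and 35.7% held a GC box, 13.6% the TATA box and 7.81% the AP-1 motif.

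Gjb2 (probe 17307117) had a log2 signal of 8.76 on the ZAG array and 9.01 on the control array. The difference of -0.25, or 1.19-fold lower with ZAG, was the largest in size of the 7 and the only one beyond the probe SD, which it passed narrowly. Among the 314 genes with a mean level within 0.5 of that of Gjb2, 40.8% differed at least as much in either direction, and the SD of their differences was 0.389.

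Gjb6 (probe 17307125) had 4.24 on the ZAG array and 4.40 on the control array. The difference of -0.16 (1.12-fold lower) was smaller than the probe SD, and 57.4% of the 3155 genes of like level differed at least as much. Gjb2 and Gjb6 are neighbours on chromosome 14 with no annotated gene between them, and the lens connexin gene Gja3, which adjoins Gjb2 on its other side, was at 4.72 on the ZAG array and 4.61 on the control array. The difference of Gja3, 0.11, was also smaller than the probe SD.

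The constitutive epidermal pair was Gja1 and Gjb5. Their promoter windows, with the same marking, are shown for comparison with the pair above. Gja1 lies at chr10:56377050-56377349 on the plus strand and Gjb5 at chr4:127358115-127358414 on the minus strand.
Gja1: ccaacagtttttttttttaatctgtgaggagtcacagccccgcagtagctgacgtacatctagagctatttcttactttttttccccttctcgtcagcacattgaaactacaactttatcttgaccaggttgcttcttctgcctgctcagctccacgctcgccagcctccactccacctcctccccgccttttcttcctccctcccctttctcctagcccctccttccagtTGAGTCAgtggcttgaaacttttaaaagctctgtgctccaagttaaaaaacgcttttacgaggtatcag
Gjb5: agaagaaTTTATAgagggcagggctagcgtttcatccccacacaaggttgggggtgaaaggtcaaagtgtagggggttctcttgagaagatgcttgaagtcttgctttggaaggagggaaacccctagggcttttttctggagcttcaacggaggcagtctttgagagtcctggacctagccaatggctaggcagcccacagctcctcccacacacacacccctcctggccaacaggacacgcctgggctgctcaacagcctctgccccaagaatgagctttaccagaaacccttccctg
The Gja1 window holds 1 AP-1 match, at -19, and none to the GC or TATA box. The Gjb5 window holds 1 match to the TATA letters, on the opposite strand at -243, which is far from the usual place of that element. They are 47.7% and 54.3% G and C, with 8 and 3 CpG dinucleotides. Among the vascular genes, the windows of Gja4 and Gja5 hold 1 GC box each and no other match. Thus of the 6 connexins with a window, the AP-1 letters occurred in that of Gja1 only, and letters absent from a window of this length say nothing about binding.

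Gja1 (probe 17233347) had 10.12 on the ZAG array and 9.91 on the control array, a difference of 0.22 (1.16-fold higher). Of the 100 genes within 0.5 of its level, 45.0% differed at least as much. Gjb5 (probe 17430227) had 4.94 on the ZAG array and 4.78 on the control array, a difference of 0.16 (1.12-fold higher), and 55.9% of 3172 genes of like level differed at least as much. Both differences were within the probe SD.

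Set against each other, Gjb2 and Gjb6 had a mean log2 difference of -0.21, and Gja1 and Gjb5 one of 0.19. The gap was -0.40, or a 1.32-fold lower ratio of the first pair to the second on the ZAG array. The 4 pairings ran from -0.47 for Gjb2 against Gja1 to -0.32 for Gjb6 against Gjb5. Their shared sign follows from the directions of the 4 genes given above. The pairings share their genes and the same 2 arrays and are not separate observations. The probe SD carried through to this gap is 0.244. Over the 11090 genes with a level no lower than the median, the SD of the log2 differences of single genes was wider, at 0.353. The spread between mice is unknown, so the gap describes these arrays and was not tested.

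Of the vascular connexins, only Gja4 was above the gauge, and it hardly differed. Gja4 (probe 17430211) had 4.36 on the ZAG array and 4.25 on the control array, a difference of 0.11 (1.08-fold higher), and 70.1% of 3158 genes of like level differed at least as much. Gja5 (probe 17400749) had 2.90 on the ZAG array and 2.75 on the control array, and Gjc1 (probe 17270315) had 2.55 with ZAG and 2.50 in control. Since Gja5 and Gjc1 were below the gauge on both arrays, no fold is given for them, and their transcripts were not told apart from background here.

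**Figure D2:**
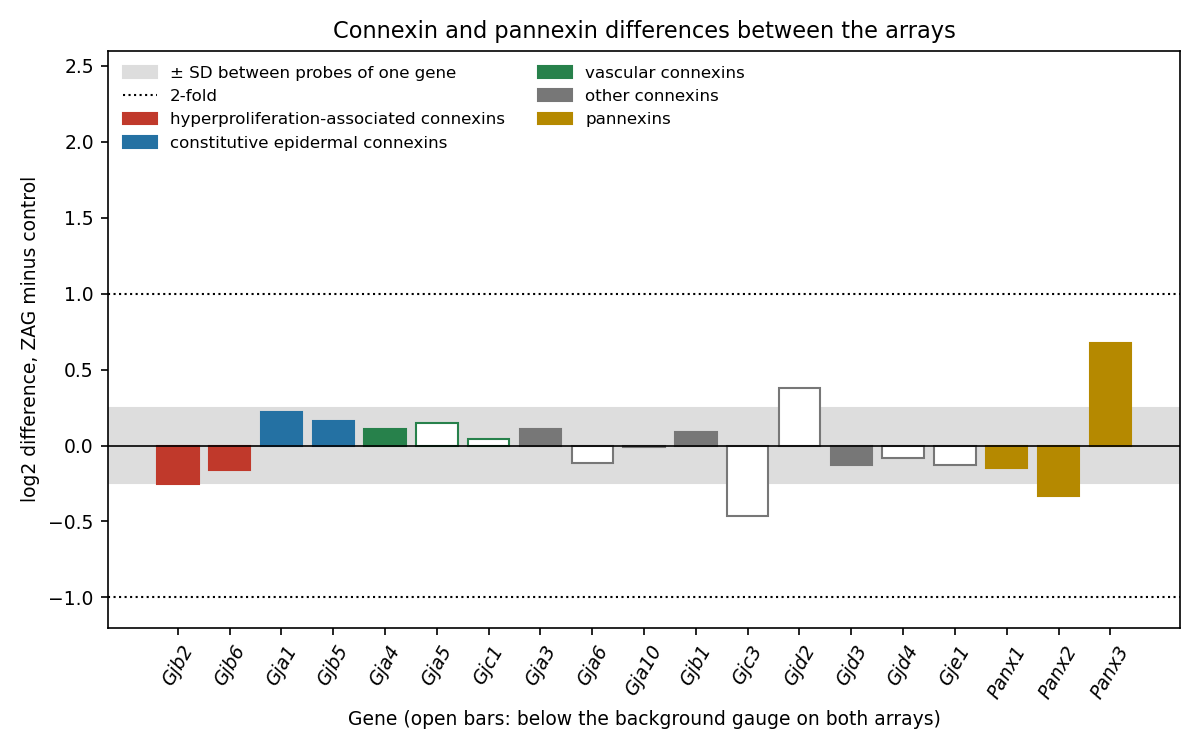
Log2 difference (ZAG minus control) of the 16 connexin and 3 pannexin genes measured, coloured by group, with the SD between probes of one gene (0.244) as a grey band and 2-fold differences as dotted lines. Most bars end within the band, Gjb2 ends at its edge, Panx3 reaches furthest at 0.67, and open bars are genes below the background gauge on both arrays.

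Among the remaining connexins, 9 of 11 listed were measured and 6 of those were below the gauge on both arrays. The 3 above it were Gja3, given above, Gjb1 and Gjd3. Gjb1, the Cx32 gene known from liver and myelinating glia, had 3.63 on the ZAG array and 3.54 on the control array. Gjd3, known from mouse cardiac conduction tissue, had 4.50 with ZAG and 4.63 in control. The median log2 difference of the 9 was -0.08, of the 3 above the gauge 0.09, and of all 22180 genes 0.01. Differences of Gjc3 (2.42 with ZAG and 2.88 in control) and Gjd2 (2.70 with ZAG and 2.32 in control) were the widest of this group, both under the gauge, where direction is not read.

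Pannexins, which form related channels in the plasma membrane but not classical gap junctions, were above the gauge on both arrays. Panx3, known from bone, cartilage and skin, had 5.71 on the ZAG array and 5.03 on the control array, a difference of 0.67 (1.59-fold higher), and 4.80% of 3165 genes of like level differed at least as much. Panx1, an ATP release channel, had 5.48 with ZAG and 5.63 in control, and Panx2, known mainly from nervous tissue, had 3.76 with ZAG and 4.09 in control. Panx3 thus had a wider difference than any measured connexin, in the direction opposite to that of Panx1 and Panx2.

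Genes of proteins that bind, traffic or modify connexins also stayed under 1.5-fold. Of 18 listed, 13 were measured, of which 7 were lower and 6 higher with ZAG, and the median was -0.0020. Among all filtered genes, 5.08% reached 1.5-fold in the lower direction with ZAG and 2.48% in the higher direction. A count of 0 among 13 genes does not stand apart from such shares. Tjp1, whose product ZO-1 binds the tail of Cx43 at the rim of gap junctions, had 7.01 on the ZAG array and 7.30 on the control array (-0.28). Cnst, the gene of the connexin trafficking receptor consortin, had 4.20 with ZAG and 3.94 in control (0.25), and Tuba1b, an alpha-tubulin gene, had 4.21 with ZAG and 3.84 in control (0.37). Ctnnd1, the p120 catenin gene of adherens junctions, had 7.13 with ZAG and 7.29 in control (-0.16).

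The log2 differences of Gjb2 and Gjb6 were smaller in size than those of 11 of the 12 activated keratinocyte genes. All 12 genes of the activated keratinocyte list were lower on the ZAG array, with a median log2 difference of -1.53, and 10 of the 11 that passed the level filter reached 2-fold, against 1.15% of all filtered genes. Sprr1b, a cornified envelope precursor gene, had 8.23 on the ZAG array and 10.75 on the control array (5.74-fold lower). Il24, an epidermal cytokine gene, had 2.67 with ZAG and 4.72 in control (at least 2.94-fold lower when the gauge serves as floor). The stress keratin gene Krt17, at 10.23 with ZAG and 10.31 in control, was the member least apart, and the differences of the other 11 ran from -2.52 to -1.03. The difference of -0.25 in Gjb2 thus lay between that of Krt17 (-0.08) and those of the other 11. The summed signal of this list was 12.35 on the ZAG array and 13.74 on the control array on the log2 scale, with no marker at 0. No test of the gap between this list and Gjb2 and Gjb6 was possible, and this list was drawn up with earlier results of these data known.

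**Figure D3:**
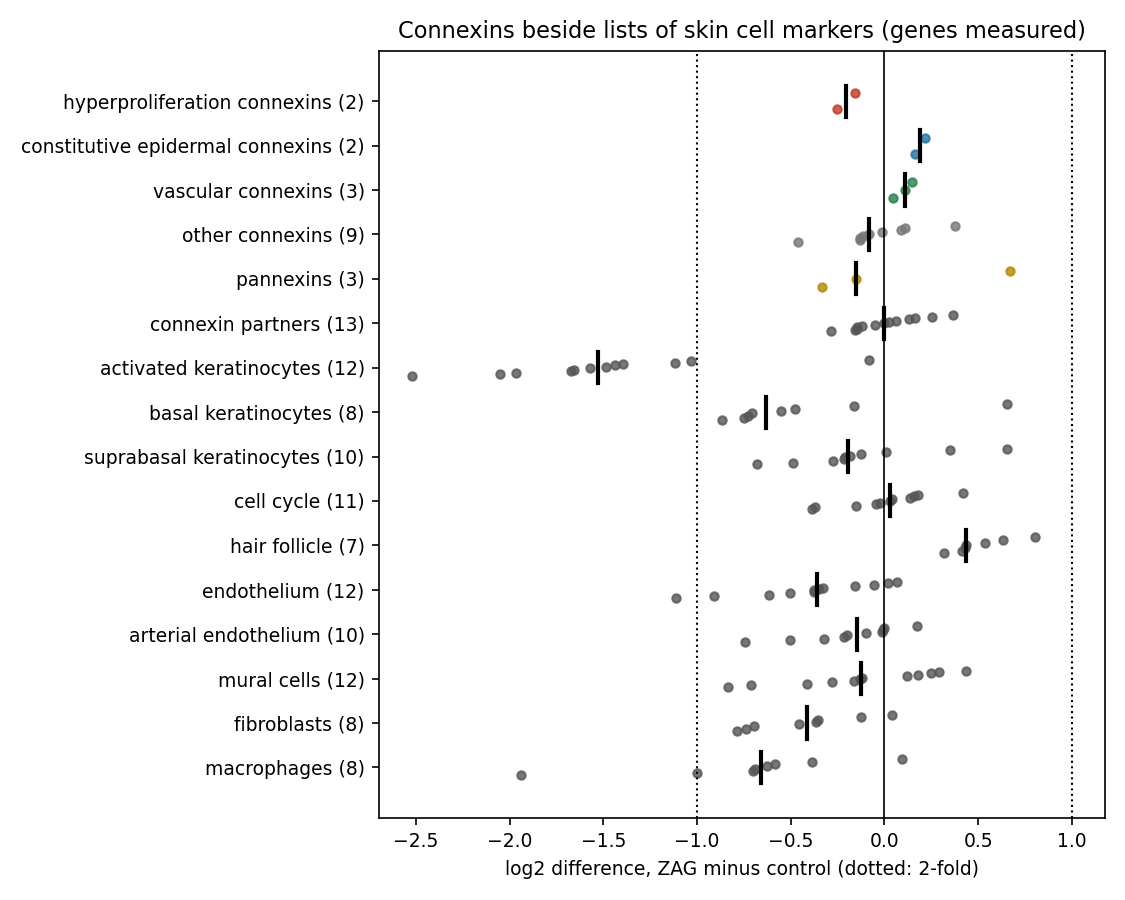
Log2 difference (ZAG minus control) of each measured gene (dots) in the connexin groups and in lists of skin markers, with list medians as black bars, the number of genes measured in brackets and 2-fold differences as dotted lines. The connexin groups and the connexin partners sit close to 0, while the activated keratinocyte median is -1.53 and the hair follicle median 0.44.

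Cell-type markers are given for the same arrays; in bulk skin, fewer cells of a type and less RNA per cell cannot be told apart. The label of skin was borne out by its markers, with the suprabasal keratin gene Krt10 at 12.16 on the ZAG array and 12.15 on the control array and the collagen gene Col1a1 at 10.27 with ZAG and 10.96 in control. Over 11 cell cycle genes the median was 0.03 (-0.0037 after loess), with 5 lower and 6 higher. Among them were Mki67, the Ki-67 proliferation marker gene, at 7.90 with ZAG and 8.27 in control, Mcm2, a replication helicase gene, at 5.71 with ZAG and 6.09 in control, and Tyms, the thymidylate synthase gene, at 5.88 with ZAG and 5.46 in control. The median of the 8 basal keratinocyte genes was -0.63 (7 lower), with Itgb4, a hemidesmosome integrin gene, at 5.73 with ZAG and 6.60 in control, and the stem cell keratin gene Krt15 at 8.72 with ZAG and 8.07 in control. That of the 10 suprabasal genes was -0.20 (7 lower), with the transglutaminase gene Tgm3 at 7.72 with ZAG and 8.40 in control and the involucrin gene Ivl at 8.32 with ZAG and 7.67 in control.

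Hair follicle keratin and trichohyalin genes were higher in 7 of 7, with a median of 0.44, a summed log2 signal of 13.25 on the ZAG array and 12.78 on the control array, and Krt31, a hair keratin gene, at 9.05 with ZAG and 8.24 in control. Hair follicles are known to hold Cx43, Cx26 and Cx30, so this list stands beside Gja1, Gjb2 and Gjb6, and its part in their values was not tested. Fibroblast genes, beside which Gja1 also stands, had a median of -0.41 over 8 genes (7 lower), a summed signal of 13.07 with ZAG and 13.35 in control, and Pdgfra, a platelet-derived growth factor receptor gene, at 7.75 with ZAG and 8.54 in control. Gja1 was higher on the ZAG array by less than the probe SD, and the part of the fibroblast list in its value was not tested.

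Endothelial genes, the setting of Gja4 and Gja5, had a median of -0.36 over 12 genes (10 lower), with a summed signal of 8.89 on the ZAG array and 9.52 on the control array. Eng, the endoglin gene, had 6.43 with ZAG and 7.54 in control, and Cdh5, the VE-cadherin gene, 6.57 with ZAG and 7.48 in control. Arterial genes had a median of -0.15 over 10 genes (8 lower), with Nrp1, a VEGF co-receptor gene, at 5.70 with ZAG and 6.45 in control and Efnb2, the arterial ephrin gene, at 7.45 with ZAG and 7.28 in control. Gja4 was higher by 0.11 on the ZAG array, a difference within the probe SD, and the part of the endothelial list in its value was not tested. Genes of smooth muscle and pericytes, the setting of Gjc1, were lower in 7 and higher in 5 of 12, with a median of -0.13. The pericyte gene Pdgfrb had 6.21 with ZAG and 7.04 in control, and the contractile gene Cnn1 5.31 with ZAG and 4.87 in control.

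Lists of other cells that skin can hold are given by their medians. Macrophage genes had one of -0.66 over 8 (7 lower). The widest difference was that of Cd14, the endotoxin co-receptor gene, at 5.11 on the ZAG array and 7.05 on the control array. Adgre1, the higher gene of this list, had 5.36 with ZAG and 5.27 in control. Skeletal muscle genes had one of 0.81 over 8 (7 higher), with the fast myosin gene Myh4 at 8.54 with ZAG and 6.95 in control. Myh1, the lower gene of this list and also a myosin gene, had 6.29 with ZAG and 7.21 in control. Adipocyte genes had a median of 0.43 over 8 (8 higher), with Fabp4, a fatty acid binding protein gene, at 11.02 with ZAG and 10.45 in control. Melanocyte genes had one of 0.30 over 6 (5 higher), with Mlana, a melanosome protein gene, at 7.27 with ZAG and 6.47 in control. Schwann cell genes had one of -0.24 over 4 (3 lower), and of -0.20 over the 3 above the gauge on at least 1 array. Cdh19, a cadherin gene, had 3.18 with ZAG, close to the gauge, and 3.75 in control. Mbp, the higher gene of this list, had 4.33 with ZAG and 4.18 in control. The part of these lists in the connexin values was not tested.

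**Figure D4:**
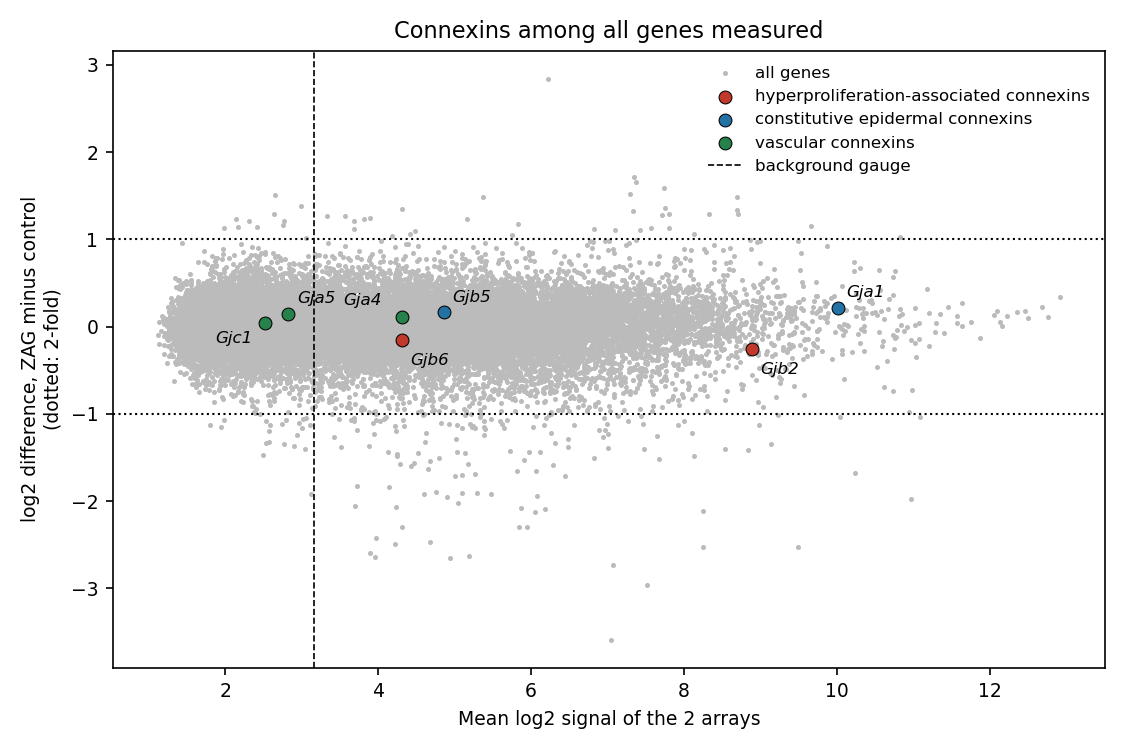
Log2 difference (ZAG minus control) of all 22180 genes against the mean log2 signal of the 2 arrays, with the 7 connexins in colour, the background gauge as a dashed line and 2-fold differences as dotted lines. Each connexin lies inside the main cloud of genes of its own level, and the genes far outside the cloud are mostly on the lower side.

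Rescaling kept the direction of each connexin above the gauge. As deposited and under median centring, quantile normalization and a loess fit of difference on level, Gjb2 ranged from -0.32 to -0.25, Gjb6 from -0.19 to -0.16, Gja1 from 0.12 to 0.22, Gjb5 from 0.14 to 0.17 and Gja4 from 0.08 to 0.11. None of these 5 reached 1.5-fold under these settings.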

How the data were processed

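Transcripts were measured on Affymetrix arrays in 2 samples. The deposited values are log2 signals, a scale inferred from their range (0.866 to 13.2); the sources used here do not give background correction, summarisation, normalization or software. Median values were 3.36 for the ZAG column and 3.33 for the control column. Of 33793 probes, 23521 had 1 gene symbol, 1814 several and 8458 none; only the first were used, averaged per gene (22180 genes). All 7 members matched their gene IDs in RefSeq's gene table. Array number limits the precision. Log2 differences were taken as ZAG minus control. Counts past a fold used the 11090 genes at or above the median level (3.87), and floors used the gauge.

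The members and the 20 gene lists were chosen with earlier results of these data known. Genes named were the members, other connexins and pannexins, and up to 2 each way per list above the gauge on at least 1 array; Krt17, Krt10 and Col1a1 were added after their values were seen. No likeness between genes was ranked, since 2 arrays give 1 difference per gene. Alternatives were other scalings (loess span 0.3), the brightest probe, level filters, a 1.5-fold threshold and a floor at the gauge. The procedure was tested on simulated data, with added gene shifts wider than any connexin difference. That test does not bear on differences as small as theirs. Computation used pandas 2.3.3 and numpy 2.4.6 in Python 3.11.15, loess came from statsmodels 0.14.6, and matplotlib 3.10.9 drew the figures.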

Additional observations from a re-analysis of the deposited data

How the results depend on the processing

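No paired analysis was possible because each group has 1 array. For the 5 connexins above the gauge, 0 of 15 values under median centring, quantile normalization and loess turned sign. Median centring moves every gene by the same small amount, so its values for these 5 could not turn. The brightest probe cannot change any of the 7, which have 1 probe each, and a floor at the gauge acts on Gja5 and Gjc1 alone, which it sets to 0. The gap between Gjb2 with Gjb6 and Gja1 with Gjb5 was -0.39 under quantile normalization and under loess, and median centring cannot move it. Averaging Gja4, Gja5 and Gjc1 into the constitutive side gave -0.34, a value that uses 2 genes below the gauge. The counts of all genes behind the background shares moved by construction with the filter and the threshold: 128 lower genes became 62 with the filter at the 75th percentile and 563 at 1.5-fold, and 30 higher genes became 46 with no filter and 275 at 1.5-fold. Of 100 list medians under alternatives, 0 moved by more than the probe SD and 3 turned sign, all near 0: the remaining connexins (0.09 above the gauge) and the cell cycle list (-0.0037 after loess and -0.023 with the brightest probe). Many of the 100 were fixed by construction. Median centring moves every median by the same amount, and the brightest probe acts only on lists holding a gene with several probes. The restriction to genes above the gauge acts only on lists holding genes below it. With 1 array per group, a difference due to ZAG and one between the sampled skin pieces cannot be told apart.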

Other observations

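A further probe, 17408135, is annotated to both Gpr89 and Gja5 and was left out of the comparison. It had a log2 signal of 5.96 on the ZAG array and 5.92 on the control array, a difference of 0.04. Its signal cannot be assigned to either gene, and the probe of Gja5 alone was below the gauge on both arrays.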
